A study of Mus musculus with 48 samples.

Results

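Cell-free bronchoalveolar lavage fluid, the saline wash of the airways and air sacs after its cells were spun out, was compared with lung epithelial brushings, the cells scraped from the airway wall, in allergic C57BL/6 mice. The comparison used the 7 fluid and the 3 brushing libraries of allergic mice, 10 of the 48 small RNA libraries of the series, and every miRNA entry of their count tables. All of these mice received weekly injections of 50 ug ovalbumin with alum into the abdomen for 3 to 4 weeks. Beginning 7 days later, 50 ug ovalbumin in 20 ul saline was given by aspiration into the lung on 3 days in a row, and samples were taken on day 4 after the first of these doses. Fluid came from a lavage with 1 ml of cold saline spun at 500 g for 5 minutes, and a brushing library held RNA of the cells of 1 to 3 mice. The counts were deposited in 3 tables, here called library sets 2, 3 and 4, and each set held 1 brushing library of allergic mice beside 3, 2 and 2 fluid libraries. A library set stands for the count table only. The other groups used for contrast were 7 fluid and 3 brushing libraries of non-allergic mice, of which 3 fluid libraries and 1 brushing library were of untreated mice and 4 and 2 of mice immunized the same way and given saline into the airway. The labels give no age or sex for the groups, and do not link same-numbered fluid and brushing libraries to a mouse. The p-values thus reflect variation between libraries, which may be technical.

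MicroRNAs are short RNAs that guide Argonaute proteins to messenger RNAs, and their targets are chosen mainly by the seed, bases 2 to 8 of the mature strand. They are found outside cells in vesicles, in protein complexes and in debris, and a fluid that bathes a tissue carries miRNAs of the cells around it. Several miRNAs are known for the cells that make them. The miR-200 family and miR-205 are made by epithelia and the miR-34/449 family by multiciliated airway cells. miR-223 is made by neutrophils and monocytes, miR-142 by leukocytes in general, and miR-451a by red blood cells. miR-126a is made by endothelium, miR-1a and miR-133 by striated muscle, and miR-143 and miR-145a by smooth muscle and fibroblasts.

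The miRNAs on which the comparison turns are given here as mature strands from RefSeq on the mouse build GRCm38.p6, 5′ to 3′, with the seed in capitals. The first set was higher in fluid and is shown because its members either led the difference or kept it after the removal of any 1 library.
miR-223-3p: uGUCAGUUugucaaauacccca
miR-221-3p: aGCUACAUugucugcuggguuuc
miR-146b-5p: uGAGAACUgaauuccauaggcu
miR-351-5p: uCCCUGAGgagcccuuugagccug
miR-500-3p: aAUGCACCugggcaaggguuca
miR-1298-5p: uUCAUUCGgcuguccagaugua
miR-340-5p: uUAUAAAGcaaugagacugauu
The second set was lower in fluid and is shown for the muscle, endothelial and epithelial members.
miR-133b-3p: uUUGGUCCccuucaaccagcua
miR-126a-3p: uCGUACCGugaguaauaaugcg
miR-31-5p: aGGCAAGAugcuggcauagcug
The third set holds miRNAs that share a seed, shown because the tested members of each seed were not all called alike. For let-7, and for miR-25-3p with miR-92a-3p, the members shown were called the same way, and members that were not called are not shown.
let-7a-5p: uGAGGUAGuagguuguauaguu
let-7e-5p: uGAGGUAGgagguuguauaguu
miR-30c-5p: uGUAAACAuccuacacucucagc
miR-30e-5p: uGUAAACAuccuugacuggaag
miR-16-5p: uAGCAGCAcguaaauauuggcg
miR-195a-5p: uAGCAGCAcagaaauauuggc
miR-497a-5p: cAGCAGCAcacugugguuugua
miR-25-3p: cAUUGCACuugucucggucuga
miR-92a-3p: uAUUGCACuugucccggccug

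Lavage fluid of allergic mice resembled the brushings in most miRNAs, those of the airway epithelium among them. It had more of a few leukocyte and X-linked miRNAs. Both strands of the endothelial miR-126a and most measured miRNAs of muscle and connective tissue were lower in fluid. Of 296 entries with enough counts, 229 (77.36%) lay within 2-fold of the brushings in the fitted fold change. Of all tested entries 65 passed the test (22%), 30 higher (10.1%) and 35 lower in fluid (11.8%), by edgeR's quasi-likelihood test with the library set as a term, at a Benjamini-Hochberg adjusted p under 0.05. Of the 30 most abundant entries of the brushings, 7 passed. The fluid and brushing ranges did not overlap for 17 of the 30 higher and 21 of the 35 lower entries, against 47 of all 296 (15.88%). All 30 higher entries were higher in each of the 3 library sets, and 32 of the 35 lower entries were lower in each of them, the exceptions being miR-497a-3p, miR-136-3p and miR-145a-3p in set 2. The calls were made from these same libraries, so separate ranges and like signs across sets come partly from the choice of entries and are no independent check. Levels are counts per 1000000 scaled by TMM (CPM). A level is set against all other miRNAs in its library, so that fewer cells of a type and less RNA per cell cannot be told apart.

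**Figure D1:**
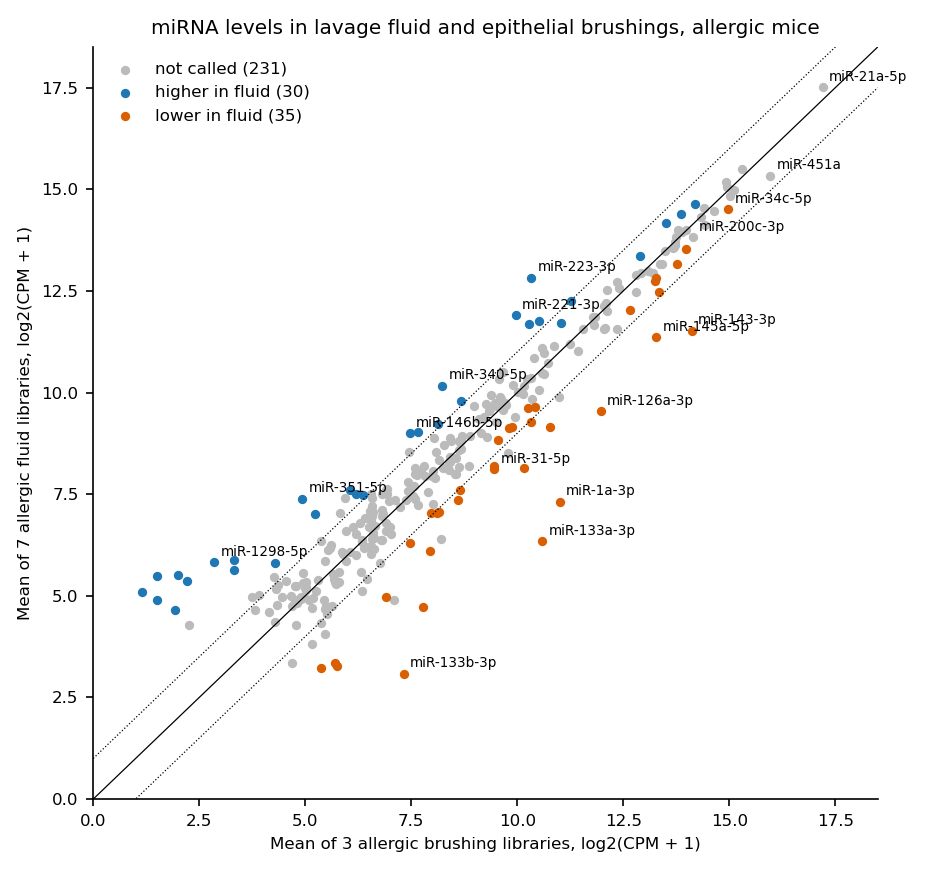
Each point is 1 of the 296 tested miRNA entries, with its mean over the 3 brushing libraries on the x axis and over the 7 fluid libraries on the y axis, both as log2(CPM + 1) in allergic mice. The solid line marks equal levels and the dotted lines a 2-fold difference. The 30 higher entries (blue) reach from low to high abundance above the line, and muscle, smooth muscle and endothelial miRNAs lie among the 35 lower entries (orange) below it.

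Library totals were 135707 to 452547 miRNA counts in fluid and 113004, 540612 and 439672 in brushing libraries 1, 2 and 3. At these totals 3 counts were worth 6.63 to 22.1 CPM in fluid and 5.55 to 26.5 CPM in brushings. The label of the brushings fits their markers, with 12.3% to 16.1% of the counts in the epithelial list. The 3 brushing libraries were not alike: library 1, the shallowest, had 17.06% of its counts in the red blood cell list and 0.861% in the mesenchymal and muscle list, while library 2 had the lowest share of the red blood cell list, 0.787%, and libraries 2 and 3 had 4.65% or more of the mesenchymal and muscle list. Fluid libraries 2 and 6 also stood apart in the red blood cell list, with the highest of them at 14.93% against a median of 1.526% over the 7. The number of calls depended on single libraries. It was 12 without brushing library 2, 13 without brushing library 3, 42 without fluid library 1, 43 without fluid library 2 and 38 without fluid library 4, and 50 to 61 after the other removals. With brushing library 1 and fluid libraries 2 and 6 all left out, a choice made after the data were seen, 36 entries passed and 30 of them were among the 65. The 4 higher entries miR-146b-5p, miR-221-3p, miR-351-5p and miR-500-3p and the 5 lower entries let-7a-5p, let-7e-5p, miR-126a-3p, miR-126a-5p and miR-143-5p passed after each of the 10 single removals.

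Some leukocyte miRNAs were higher in fluid. Of the 14 listed miRNAs of blood cells 13 were tested, 5 were higher (10.1% over all tested entries), none was lower and 8 did not pass, with a median log2 difference of 0.85 against 0.02 over all tested entries. miR-223-3p ran from 2327 CPM through a median of 5453 to 13690 in the 7 fluid libraries, and was at 1829, 878 and 1153 CPM in the 3 brushing libraries. Every fluid library was above every brushing library. Fluid libraries 5 and 7 were the lowest, and fluid libraries 2 and 6 and brushing library 1, the libraries with most of the red blood cell list, were the highest of their groups. The difference was 5.23-fold (log2 2.39, SE 0.62, edgeR adjusted p = 0.0306), and the call was lost without fluid library 1 or 4 or any 1 brushing library. Its other strand, miR-223-5p, ran from 9.17 through 44.6 to 84.1 CPM in fluid and was at 9.06, 0 and 0 CPM in brushings, so that the brushing side rests on few counts, all of them in brushing library 1 (log2 4.51, SE 1.06, edgeR adjusted p = 0.0127). The call of miR-223-5p was lost without brushing library 2 or 3, with log2 3.84 without library 3. Without brushing library 1 both remaining brushing libraries were at 0.

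miR-146b-5p, of the miR-146 family that is induced downstream of NF-kB and restrains inflammatory signalling, ran from 314 through 517 to 699 CPM in fluid and was at 308, 109 and 108 CPM in brushings. The ranges did not overlap, although brushing library 1 came close to the lowest fluid library. The difference was 3.00-fold (log2 1.58, SE 0.25, adjusted p = 0.00156 by edgeR). miR-342-3p, encoded within the Evl gene and abundant in lymphocytes and myeloid cells, ran from 284 through 532 to 724 CPM in fluid and was at 254, 189 and 164 in brushings (2.58-fold, log2 1.36, SE 0.29, edgeR adjusted p = 0.0101). The pan-leukocyte hairpin of miR-142a was split between its strands. miR-142a-5p ran from 1853 through 3418 to 5326 CPM in fluid against 2535, 872 and 977 in brushings (log2 1.24, SE 0.29, edgeR adjusted p = 0.0126). miR-142a-3p, the more abundant strand, was at 2163 to 11960 CPM in fluid and 7162, 4293 and 4278 in brushings, and did not pass (log2 0.12, SE 0.32, edgeR adjusted p = 0.866). The lymphocyte miRNA miR-150-5p (log2 0.85), miR-146a-5p (0.84), miR-139-5p (1.08) and miR-155-5p, which rises on activation of lymphocytes and macrophages (0.36), did not pass either. The other strand of miR-150, miR-150-3p, was not in the list and passed as higher (log2 3.47). It was a low entry, with a median of 0% of the counts in brushings. Its call was lost after 4 single removals, and it could not be tested after 5 others.

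The share of the whole blood cell list, which needs no scaling between libraries, ran from 1.24% through 2.45% to 3.87% of the counts in fluid and from 1.03% through 1.07% to 1.71% in brushings. The groups overlapped, since the 2 lowest fluid libraries were below brushing library 1. In the lavage cells of allergic mice the same list took 11.5% to 36.7%. The part of remaining cells in the fluid values was not tested.

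**Figure D2:**
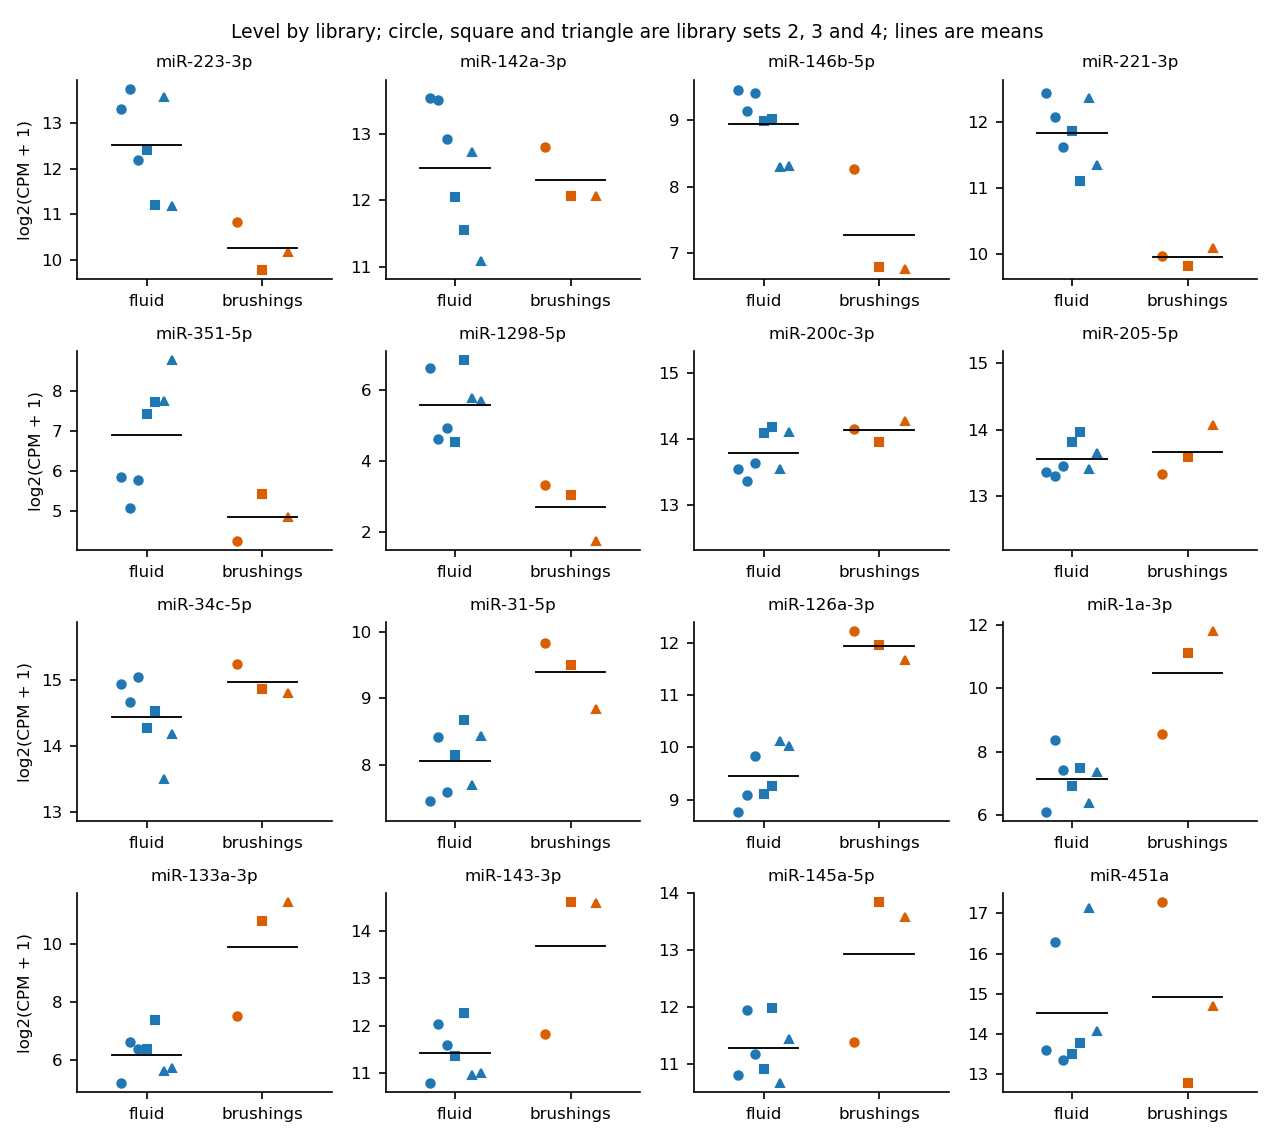
Level of 16 miRNAs in each of the 7 fluid (blue) and 3 brushing libraries (orange) of allergic mice, as log2(CPM + 1); circles, squares and triangles are library sets 2, 3 and 4 and black lines are group means. miR-221-3p separates the groups in every set, miR-200c-3p and miR-205-5p do not separate them, and for miR-1a-3p, miR-133a-3p, miR-143-3p and miR-145a-5p the set 2 brushing library lies closer to the fluid than the other brushing libraries do.

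Of the 28 higher entries that matched the RefSeq table, 9 are encoded on the X chromosome alone (32.14%), against 1 of 23 lower (4.348%) and 32 of 252 matched tested entries (12.7%). These are miR-223-3p and miR-223-5p, miR-221-3p, miR-188-5p, miR-500-3p, miR-1298-5p, miR-351-5p, miR-322-3p and miR-542-3p. Several come from the same locus and are not independent of each other, and no test was made of the share. miR-322, miR-351 and miR-542 lie within a few kilobases on the minus strand, with hairpins of miR-322 at chrX:53054255-53054349 and of miR-542 at chrX:53049403-53049487 and the mature miR-351-5p at chrX:53053315-53053338 (mm10). They belong to a cluster with miR-503 and miR-450 that is known from differentiating muscle and from growth arrest.

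miR-351-5p ran from 32.7 through 171 to 432 CPM in fluid and was at 18.1, 41.9 and 28.1 CPM in brushings. The 3 fluid libraries of set 2 were the lowest, and 1 of them fell below brushing library 2, so that the ranges overlapped. The fitted difference was 6.11-fold (log2 2.61, SE 0.45, adjusted p = 0.00255 by edgeR), and separate sets gave log2 values of 1.10, 2.01 and 3.15. Without brushing library 3 it was at log2 1.95 and still passed. miR-542-3p ran from 20.6 through 44.6 to 120 CPM in fluid and was at 0, 20.0 and 7.03 CPM in brushings (5.88-fold, log2 2.56, SE 0.54, edgeR adjusted p = 0.0101). The log2 value ran from 1.74 to 4.02 when 1 library was left out, and the call was lost without brushing library 3 (edgeR adjusted p = 0.111), at a depth where 3 counts were worth 26.5 CPM in brushing library 1. miR-322-3p ran from 19.6 through 135 to 357 CPM in fluid and was at 0, 43.7 and 65.6 in brushings (log2 1.93, SE 0.47, edgeR adjusted p = 0.0150). The other strand, miR-322-5p (log2 0.65), miR-503-5p (1.25) and miR-450a-5p (1.15) did not pass.

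miR-221-3p, which acts on Kit and on the cell cycle inhibitor p27 and is rich in endothelial and many growing cells, showed 1 of the clearest separations. It ran from 2201 through 3707 to 5532 CPM in fluid and was at 1005, 903 and 1090 CPM in brushings. The lowest fluid library was above the highest brushing library (3.70-fold, log2 1.89, SE 0.29, edgeR adjusted p = 0.00156). Its partner from the same locus, miR-222-3p, ran from 1743 to 2402 CPM in fluid and was at 1666, 1648 and 1317 in brushings, with ranges that did not overlap but no call (log2 0.50, SE 0.20, edgeR adjusted p = 0.0876). Within a library there were 1.0 to 2.47 counts of miR-221-3p for each of miR-222-3p in fluid and 0.548 to 0.827 in brushings.

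miR-1298-5p, encoded with a chain of other miRNAs in the Htr2c gene, ran from 22.3 through 50.4 to 113 CPM in fluid and was at 9.06, 7.28 and 2.34 CPM in brushings. The ranges did not overlap, and the brushing values lay below or at the worth of a few counts (10.6-fold, log2 3.41, SE 0.75, edgeR adjusted p = 0.0106). The call was lost without brushing library 2 or 3, and the log2 value was 2.80 without fluid library 5. The other 9 strands listed for the macrophage-associated introns, which included miR-511 of the Mrc1 gene, were too low to be tested. miR-188-5p and miR-500-3p share an intron cluster in Clcn5. miR-188-5p ran from 118 through 176 to 267 CPM in fluid and was at 63.4, 61.9 and 70.3 in brushings (log2 1.47, SE 0.32, edgeR adjusted p = 0.0101). miR-500-3p ran from 748 through 909 to 1126 CPM in fluid and was at 272, 477 and 478 in brushings (log2 1.14, SE 0.24, edgeR adjusted p = 0.0101), and every fluid library was above every brushing library for both.

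Among the autosomal miRNAs that were higher, miR-340-5p, from an intron of Rnf130, ran from 499 through 1315 to 1851 CPM in fluid and was at 408, 229 and 265 CPM in brushings. No fluid library was within the brushing range (3.79-fold, log2 1.92, SE 0.48, edgeR adjusted p = 0.0229). miR-25-3p and miR-92a-3p share a seed and belong to the miR-17-92 group, known from proliferating cells. miR-25-3p ran from 1376 through 2264 to 6235 CPM in fluid against 1856, 701 and 1150 in brushings (log2 1.37, SE 0.42, edgeR adjusted p = 0.0408). Its call was lost after 6 of the 10 single removals. miR-92a-3p ran from 3125 through 4555 to 7935 CPM in fluid against 2916, 1782 and 2680 in brushings (log2 1.00, SE 0.26, edgeR adjusted p = 0.0199). These were the only 2 of the 10 tested entries of that group that passed (10.1% were higher over all tested entries), and the median of the group was log2 0.01. Fluid libraries 2 and 6 and brushing library 1, which carried most miR-451a, also had high miR-25-3p in their groups, and the part of red blood cells in this difference was not tested.

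The remaining higher entries, not all of which are described here, included the low entries miR-8114 and miR-122-5p. miR-8114 ran from 33.2 through 56.6 to 73.4 CPM in fluid and was at 9.06, 34.6 and 11.7 in brushings (log2 1.41, SE 0.40, edgeR adjusted p = 0.0280). The liver miRNA miR-122-5p ran from 4.89 through 19.2 to 52.0 CPM in fluid and was at 0, 5.46 and 0 in brushings (log2 3.39, SE 1.01, edgeR adjusted p = 0.0332). Its call was lost after 7 of the 10 single removals, with log2 2.67 without brushing library 3, and in serum of allergic mice its median share was 0.0951% against 0.00177% in fluid. At 3 counts for 6.63 CPM or more, the values of both entries rest on few counts. Of 4 listed liver and gut miRNAs 3 were tested, 1 was higher (10.1% over all tested entries) and none was lower. The others tested, miR-192-5p (log2 0.21) and miR-194-5p (-0.11), did not pass. The whole list took a median of 0.0434% of the counts in fluid and 0.0466% in brushings.

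Most measured miRNAs of muscle and connective tissue were lower in fluid. Of 12 listed members 9 were tested, 7 were lower (11.8% over all tested entries) and none was higher, with a median log2 difference of -1.74. miR-133a-3p, of striated muscle, ran from 36.0 through 81.7 to 165 CPM in fluid and was at 181, 1739 and 2716 CPM in brushing libraries 1, 2 and 3. The groups did not overlap, but brushing library 1 was close to the highest fluid library and far below the other brushing libraries. The fitted difference was log2 -3.95 (SE 0.72, adjusted p = 0.0101 by edgeR); sets 2, 3 and 4 alone gave -1.35, -3.82 and -5.57. The call was lost without brushing library 2, and the log2 value was -4.75 without brushing library 1 and -2.76 without library 3. miR-133b-3p ran from 2.55 through 5.14 to 18.3 CPM in fluid and was at 45.3, 173 and 260 in brushings, with no overlap (log2 -4.26, SE 0.50, edgeR adjusted p = 0.000218). It passed after each of the 8 removals in which it was tested. Without brushing library 2 or 3, where it was high, it had too few counts to be tested, so those removals give no check of its call.

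miR-1a-3p, also of striated muscle, ran from 66.8 through 163 to 332 CPM in fluid and was at 371, 2226 and 3557 CPM in brushings. It separated the groups in the same way (log2 -3.56, SE 0.75, adjusted p = 0.0175 by edgeR; -1.20, -3.88 and -4.86 in sets 2, 3 and 4), and its call was lost without fluid library 4 or brushing library 2 or 3. Its log2 value was -4.34 without brushing library 1 and -2.64 without library 3. The smooth muscle and fibroblast miRNA miR-143-3p ran from 1758 through 2615 to 4910 CPM in fluid and was at 3622, 24880 and 24810 in brushings. Brushing library 1 lay inside the fluid range, and the other brushing libraries were far above it (log2 -2.44, SE 0.61, adjusted p = 0.0280 by edgeR; -0.35, -2.79 and -3.61 in the 3 sets). It was at log2 -3.12 without brushing library 1 and, not passing, at -1.65 without library 3. Its less abundant strand, miR-143-5p, ran from 10.3 through 23.4 to 61.2 CPM in fluid and was at 45.3, 370 and 237 in brushings (log2 -2.94, SE 0.42, edgeR adjusted p = 0.000986; -2.34 without brushing library 3).

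miR-145a-5p, from the same locus as miR-143, ran from 1616 through 2318 to 4057 CPM in fluid and was at 2671, 14680 and 12330 in brushings. Its difference came from sets 3 and 4 (log2 -2.39 and -2.54) and was near 0 in set 2 (-0.07). The fitted value was log2 -1.74 (SE 0.52, edgeR adjusted p = 0.0443), and the call was lost after 8 of the 10 removals, though not without brushing library 1, where it was -2.33. miR-199b-5p, of mesenchymal cells, ran from 81.7 through 138 to 386 CPM in fluid and was at 245, 530 and 389 in brushings (log2 -1.40, SE 0.43, edgeR adjusted p = 0.0408), also lost after 8 removals. The call of miR-214-3p (log2 -0.94) was lost after 8 removals too. miR-199a-5p (log2 -1.44) and the joined entry of miR-199a-3p and miR-199b-3p (-1.09) did not pass. miR-140-5p, best known from cartilage, ran from 428 through 550 to 825 CPM in fluid and was at 752, 2632 and 1842 in brushings (log2 -1.53, SE 0.32, edgeR adjusted p = 0.0101), and without brushing library 2 it was at log2 -0.90 and did not pass. The share of the whole list was 0.519% to 1.04% of the counts in fluid and 0.861%, 4.65% and 4.92% in the brushing libraries from lowest to highest. Brushing library 1 was the lowest of them, and its part in the spread of the fitted values is given by the values within sets.

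The imprinted Dlk1-Dio3 region on mouse chromosome 12 encodes miRNAs that are expressed mainly in embryonic, mesenchymal and neural tissue. Of 16 listed strands 5 had enough counts, 3 were lower (11.8% over all tested entries) and none was higher. Of these 3, miR-411-5p and miR-136-3p could not be tested without brushing library 2 or 3. Their place among the tested strands thus depended on the brushings in which they were high, and the share of lower members is partly set by the count filter. miR-127-3p ran from 14.0 through 23.0 to 63.6 CPM in fluid and was at 81.5, 137 and 141 in brushings, without overlap (log2 -2.05, SE 0.42, edgeR adjusted p = 0.0101). miR-411-5p ran from 0 through 7.43 to 21.6 CPM in fluid and was at 9.06, 63.7 and 86.7 in brushings (log2 -2.44, SE 0.54, edgeR adjusted p = 0.0106). miR-136-3p was the third (log2 -2.19), but it was higher in fluid in set 2 (0.79) and lost its call after 4 of the 8 removals in which it was tested.

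Both strands of the endothelial miR-126a, encoded within Egfl7 at chr2:26591357-26591429 (mm10), were lower in fluid. miR-126a-3p ran from 432 through 615 to 1116 CPM in fluid and was at 4763, 3958 and 3252 CPM in brushings. Brushing library 1, which was low in the muscle miRNAs, was the highest here, and every fluid library was far below every brushing library (log2 -2.49, SE 0.27, edgeR adjusted p = 0.000196). miR-126a-5p ran from 195.4 through 234 to 590 CPM in fluid and was at 1222, 990 and 1223 in brushings (log2 -2.06, SE 0.27, edgeR adjusted p = 0.000418). The calls of both strands held after every single removal. In serum of allergic mice miR-126a-3p had a median share of 0.796% of the counts, against 0.402% in brushings, 0.0590% in fluid and 0.00656% in lavage cells.

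The epithelial miRNAs lay close together in fluid and brushings. Of the 15 listed, all were tested and 1 was lower (11.8% over all tested entries), with a median log2 difference of -0.08. miR-200c-3p ran from 10620 through 12700 to 18570 CPM in fluid and was at 18270, 15920 and 19850 CPM in brushings (log2 -0.32, SE 0.18, edgeR adjusted p = 0.235). miR-205-5p ran from 10050 through 11260 to 16080 CPM in fluid and was at 10300, 12270 and 17250 in brushings (log2 -0.07, SE 0.17, edgeR adjusted p = 0.850). The fluid and brushing values overlapped for both. The member that passed was miR-31-5p, which is made by epithelia and also by activated T cells. It ran from 175 through 282 to 407 CPM in fluid and was at 915, 728 and 459 in brushings, without overlap (log2 -1.30, SE 0.29, edgeR adjusted p = 0.0106), and its call was lost without brushing library 1 or 2.

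The miRNAs of multiciliated cells were close to the brushings as well. Of 7 listed 6 were tested and 1 was lower (11.8% over all tested entries), with a median log2 difference of -0.23. miR-34c-5p, the most abundant of them, ran from 11560 through 23500 to 33490 CPM in fluid and was at 38420, 29740 and 28550 in brushings (1.49-fold lower, log2 -0.58, SE 0.17, edgeR adjusted p = 0.0348). The highest fluid values overlapped the brushings, and fluid library 6 was the lowest. The call of miR-34c-5p was lost after 5 of the 10 single removals. The other measured members ran from log2 -0.66 for miR-34b-5p to 0.11 for miR-34b-3p. As a share of counts the epithelial list took 9.99% to 18.8% in fluid and 12.3% to 16.1% in brushings, and the multiciliated list 3.60% to 8.55% and 6.42% to 7.68%. In lavage cells of allergic mice their medians were 0.811% and 0.238%, and in serum 0.369% and 0.00545%.

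**Figure D3:**
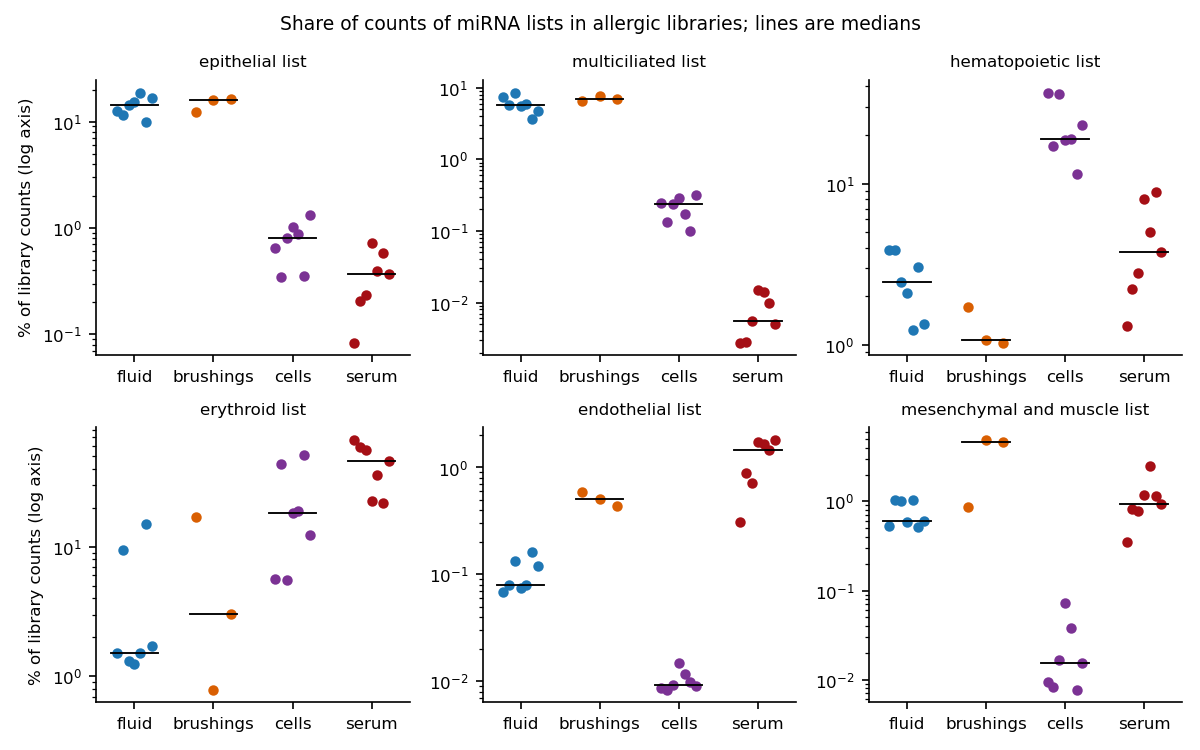
Percent of the counts of a library taken by 6 miRNA lists in the allergic libraries of lavage fluid (7), brushings (3), lavage cells (7) and serum (7), on log axes; each point is a library and lines are medians. Fluid and brushings lie together for the epithelial and multiciliated lists, the endothelial points of fluid lie below those of brushings and serum, and the brushing library with the highest erythroid share has the lowest mesenchymal and muscle share.

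Families that share a seed did not always move together. Of 33 seeds shared by 2 or more tested entries that matched the RefSeq table, 4 had 2 or more calls and 1 had calls in both directions. The let-7 family, which holds back growth and is abundant in differentiated tissue, had 5 of 9 members lower, against 11.8% over all tested entries, and none higher (median log2 -0.47). let-7a-5p ran from 4384 through 5933 to 7325 CPM in fluid and was at 13580, 9688 and 7652 in brushings, just without overlap (log2 -0.88, SE 0.14, edgeR adjusted p = 0.00169). let-7e-5p ran from 439 through 627 to 795 CPM in fluid and was at 1349, 1356 and 1150 in brushings (log2 -1.11, SE 0.18, edgeR adjusted p = 0.00203). let-7b-5p (log2 -0.08) and let-7c-5p (-0.10) did not pass.

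With the seed AGCAGCA, miR-195a-5p and miR-497a-5p, neighbours on chromosome 11, were lower in fluid while the abundant miR-16-5p was not called. miR-195a-5p ran from 149 through 324 to 445 CPM in fluid and was at 580, 841 and 682 in brushings (log2 -1.26, SE 0.29, edgeR adjusted p = 0.0127). miR-497a-5p ran from 89.2 through 117 to 176 CPM in fluid and was at 299, 271 and 253 in brushings (log2 -1.12, SE 0.25, edgeR adjusted p = 0.0109). For both, each fluid library was below each brushing library, whereas miR-16-5p was at 46340 ± 9426 CPM in fluid (SD, n = 7) and 40450 ± 4369 in brushings (n = 3; log2 0.19, SE 0.17, edgeR adjusted p = 0.506).

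The miR-30 family, common in epithelia, held the 1 seed with calls both ways among the entries matched to RefSeq, which did not include miR-30d-5p or miR-23b-3p. miR-30c-5p ran from 10800 through 11400 to 13690 CPM in fluid and was at 18530, 15800 and 14250 in brushings (log2 -0.47, SE 0.14, edgeR adjusted p = 0.0365), and its call was lost after 7 of the 10 removals. miR-30e-5p ran from 9129 through 10560 to 12230 CPM in fluid and was at 6483, 8008 and 8266 in brushings (log2 0.50, SE 0.14, edgeR adjusted p = 0.0276). miR-30d-5p was higher in fluid too (log2 0.66, SE 0.17, edgeR adjusted p = 0.0199), and miR-30a-5p (0.06) and miR-30b-5p (0.21) were not called. Ratios within a library need no scaling: miR-30d-5p over miR-30c-5p was 1.14 to 2.0 in the 7 fluid libraries and 0.615, 0.745 and 0.834 in the brushings. In non-allergic mice the same ratio was 1.27 to 1.597 in fluid and 0.593 to 0.687 in brushings.

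miR-23a-3p and miR-23b-3p, near-identical miRNAs from separate clusters, also parted. miR-23a-3p was higher in fluid (25220 CPM at the median, against 17520, 19730 and 18970 in brushings; log2 0.45, SE 0.15, edgeR adjusted p = 0.0443). miR-23b-3p was lower (6571 CPM at the median, against 8964, 10110 and 10110; log2 -0.50, SE 0.14, edgeR adjusted p = 0.0280). Their ratio was 2.75 to 4.45 in fluid and 1.88 to 1.96 in brushings, and 5.15 to 8.11 in lavage cells of allergic mice. Counts of such near copies are uncertain, because the sources used here do not say how reads that fit both were shared. The ratio of miR-27a-3p to miR-27b-3p, from the same pair of clusters, was 1.51 to 2.05 in fluid and 1.52 to 1.65 in brushings, and so overlapped. Of the 12 ratios computed, 4 others also overlapped between fluid and brushings in allergic mice: miR-146b-5p over miR-146a-5p (0.233 to 0.648 and 0.118 to 0.337), and the ratios between the strands of miR-34b, miR-34c and miR-322. The ratio of let-7e-5p to miR-125a-5p, not drawn in the figure, was lower in fluid without overlap (0.0579 to 0.158 in fluid and 0.163 to 0.422 in brushings).

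**Figure D4:**
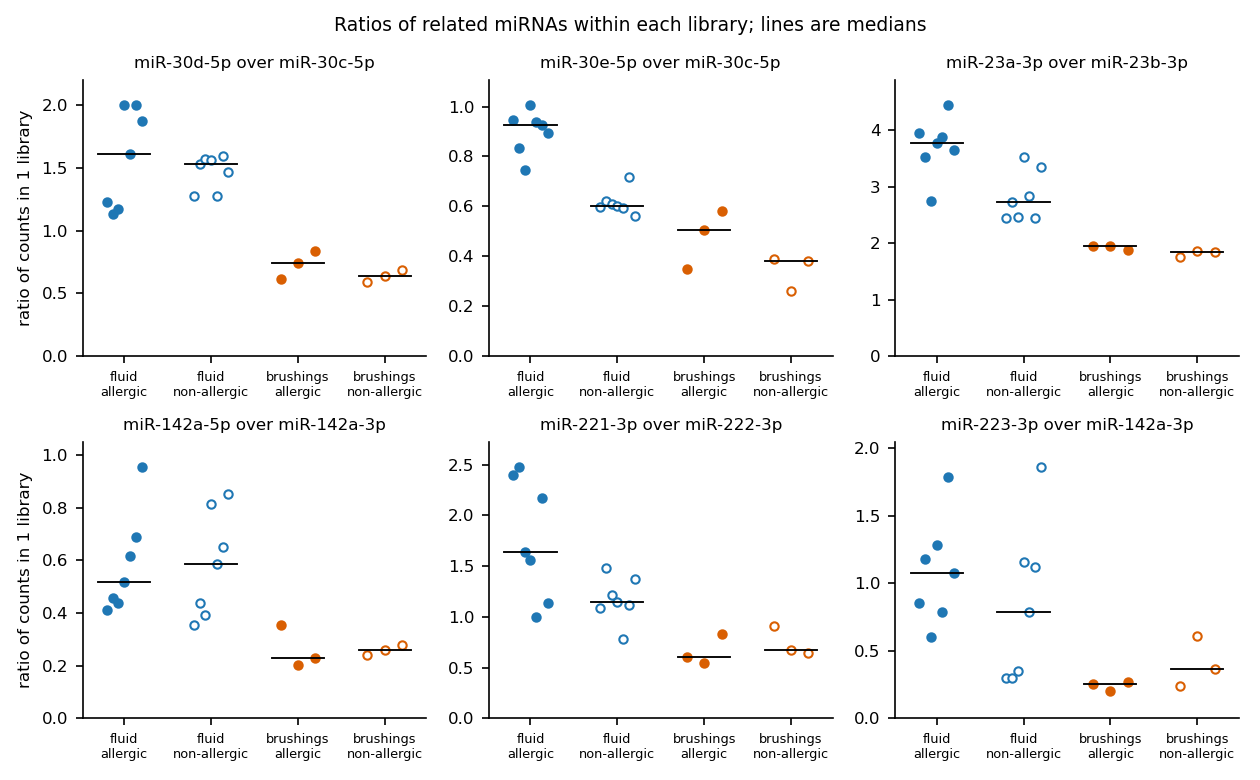
Ratio of the counts of 2 related miRNAs within each library, in fluid (blue, 7 libraries a group) and brushings (orange, 3 a group) of allergic (filled) and non-allergic mice (open); lines are medians. The 6 were chosen from 12 computed ratios after their values were seen. In allergic mice each of these 6 is higher in every fluid library than in every brushing library, and in non-allergic mice this also holds for miR-30d-5p over miR-30c-5p, miR-30e-5p over miR-30c-5p, miR-23a-3p over miR-23b-3p and miR-142a-5p over miR-142a-3p.

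The most abundant miRNAs were not called. miR-21a-5p, which is abundant in most epithelia and rises in inflamed lung, ran from 160300 through 180300 to 222000 CPM in fluid and was at 115300, 144500 and 194200 in brushings (log2 0.35, SE 0.14, edgeR adjusted p = 0.0917). miR-29a-3p (log2 0.28), miR-200a-3p (0.14), miR-200b-3p (-0.14) and miR-26a-5p (-0.17) did not pass. miR-451a varied widely between libraries of a group. It ran from 10400 through 14030 to 143900 CPM in fluid and was at 158600, 6983 and 26740 in brushings (log2 -0.41, SE 1.18, edgeR adjusted p = 0.879). None of the 4 tested entries of the red blood cell list passed, nor did any of the 5 tested entries of the miR-99 and miR-125 families or the 3 of the miR-29 family. Of 10 tested miRNAs known to rise on cell activation, 2 passed, miR-221-3p as higher and miR-31-5p as lower, a share near the 22% over all tested entries.

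Set beside lavage cells and serum of the same treatment, the higher entries did not share 1 pattern of levels. The median share of miR-223-3p was 0.541% in fluid, 0.112% in brushings, 4.74% in lavage cells and 1.19% in serum. miR-146b-5p was at 0.0501% in fluid and 0.0111% in brushings, and was far higher in lavage cells (0.958%) than in serum (0.0170%). miR-221-3p was at 0.368% in fluid and 0.0982% in brushings, between lavage cells (0.207%) and serum (0.538%). For miR-500-3p the median was 0.0837% in fluid, 0.0464% in brushings, 0.0781% in lavage cells and 0.0694% in serum. miR-351-5p was highest in fluid, at 0.0170% against 0.00273% in brushings, 0.00704% in cells and 0.0125% in serum, and miR-30d-5p was as well, at 1.81% against 1.15%, 0.827% and 0.797%. No test was made across these 4 compartments.

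The same contrast in non-allergic mice asks whether allergy changed the difference between fluid and brushings. There 49 of 316 entries passed (15.5%), 26 higher and 23 lower in fluid, in 1 fit of 20 libraries. For allergic mice the same fit gave 73 calls among the 316 entries, 36 higher and 37 lower. Of the muscle and connective tissue miRNAs, miR-133a-3p was at log2 -3.71 in allergic mice in that fit and -3.75 in non-allergic mice, and miR-143-3p at -2.45 and -2.40, while miR-199b-5p was at -1.54 and -0.12 and miR-214-3p at -0.95 and -0.20. miR-127-3p of the Dlk1-Dio3 region was at -2.10 and -1.88. miR-1298-5p was at 3.43 and 4.12 and miR-146b-5p at 1.68 and 2.01. miR-126a-3p was at -2.38 and -0.80, miR-223-3p at 2.64 and 0.47, and miR-340-5p at 2.04 and 0.01.

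No difference between the states passed for any of the 316 entries (0%) by edgeR's test of the interaction, with 32 at an unadjusted p under 0.05, while DESeq2 called 3. These are also the 3 with the lowest p in edgeR, each at an adjusted p of 0.130. miR-340-5p, scaled over the 20 libraries, ran from 491 through 1351 to 2198 CPM in allergic fluid and from 193 through 257 to 288 in non-allergic fluid, and was at 409, 234 and 273 in allergic and 299, 186 and 242 in non-allergic brushings. Every allergic fluid library was above every other library, and the interaction was log2 2.04 (SE 0.52). miR-338-3p, from an intron of Aatk, ran from 51.8 through 137 to 408 CPM in allergic fluid and from 21.1 through 29.9 to 43.2 in non-allergic fluid, against 63.6 to 113 and 67.1 to 156 in brushings. Its fluid levels were above the brushings in part of the allergic libraries and below them in all non-allergic libraries (interaction log2 2.95, SE 0.72). miR-497a-3p, a low entry at 0 to 17.9 CPM in allergic and 14.4 to 156 CPM in non-allergic fluid, went the other way (interaction log2 -4.12, SE 1.08), with 0 CPM in allergic brushing library 1 and 68.8 and 55.6 in libraries 2 and 3. The interaction for miR-223-3p was log2 2.17 with an unadjusted p of 0.0211 and did not pass.

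**Figure D5:**
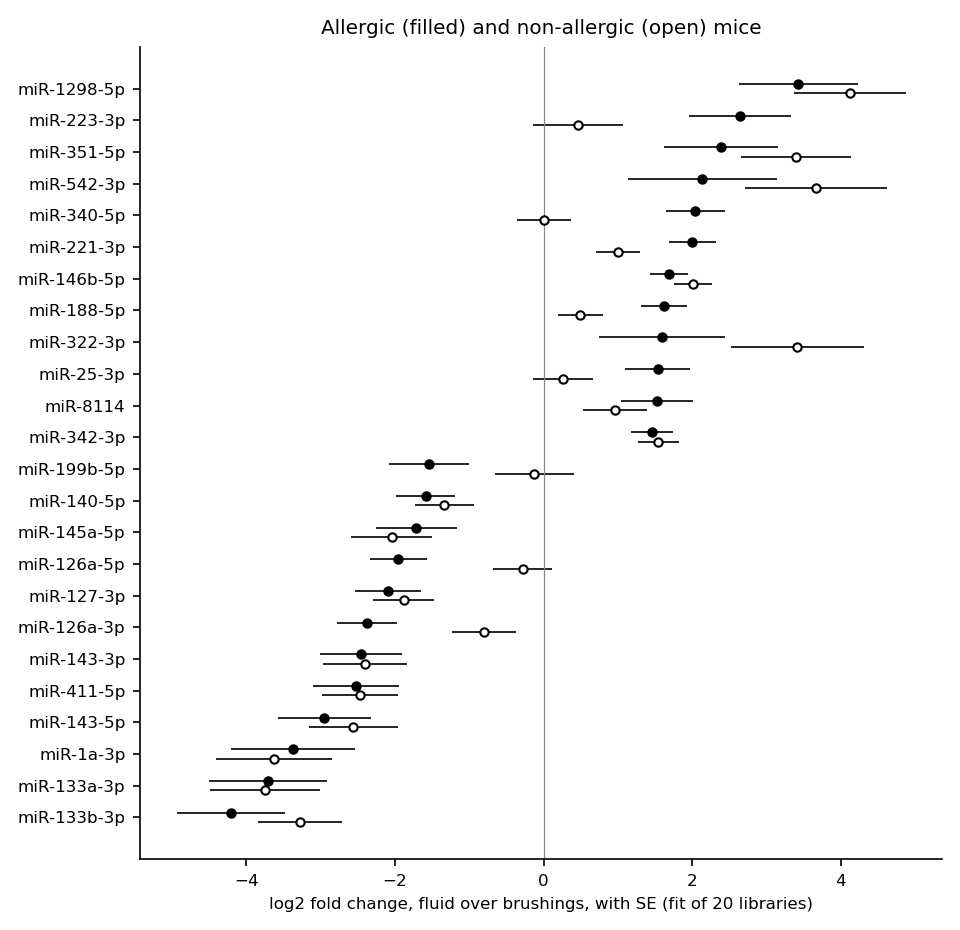
Log2 fold change of fluid over brushings in allergic (filled) and non-allergic mice (open) for the 24 leading miRNAs of the allergic contrast, from 1 fit of 20 libraries; bars are SE. The miRNAs were chosen on the allergic contrast, whose values therefore lie away from 0. miR-1a-3p, miR-133a-3p and miR-143-3p lie at like values in both states, and miR-340-5p, miR-126a-5p, miR-199b-5p and miR-223-3p lie near 0 in non-allergic mice; none of these differences between the states passed edgeR's test.

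Plain features of the mature strands differed little between higher and lower entries. Median length was 22 bases in both, and median GC content was 45.45% in the 28 matched higher, 43.48% in the 23 matched lower and 45.45% in all 252 matched entries. Short motifs that have been tied to loading of miRNAs into exosomes were looked for on the mature strand. GGAG was in 7.143% of higher, 4.348% of lower and 6.349% of all matched entries, and CCCU in 14.29%, 4.348% and 9.921%. The CCCU of higher entries was in miR-10a-5p, miR-188-5p, miR-296-5p and miR-351-5p. Where both strands of a hairpin were tested, 5 of 74 pairs were called the same way and none in opposite ways, while in 23 pairs 1 strand alone was called. The median size of the difference between the strands of a pair was 0.47 on the log2 scale.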

How the data were processed

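Small RNA libraries were made from 20 to 65 ng of total RNA with 5 random bases on the adapter, per the labels' protocols. The authors deposited expected counts per mature miRNA in 3 tables, which define the library sets. Deposited RPM values are a single table of all libraries. Trimming with cutadapt, the build mm10 and DESeq2 are named per the submitters' processing notes; no aligner is given there. The tables held 1409 entries, 124 of them hairpins (0.0626% of the counts of the 10 libraries) and 26 joined names (0.537%); 11 were not in the RPM table and 0 columns were unmatched. Whole counts had been assumed, but 3.79% of values were not whole, so they were rounded, which moved totals by a median of 0.0078%.

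Counts were tested with edgeR 4.0.16 in R 4.3.3: filterByExpr at a minimum count of 10, TMM scaling, robust quasi-likelihood test, library set as a term, Benjamini-Hochberg adjustment over all tested entries. An SE is the absolute log2 difference divided by the square root of F. Non-allergic mice and the interaction came from 1 fit of 20 libraries with state-specific contrasts. Within-set values are differences of mean log2 CPM with a prior count of 2. Depth limits are 3 counts and cover counting error only. No 2 libraries of a group were alike within sampling noise (smallest chi-square per degree of freedom 13.09). The pipeline was tested on simulated counts.

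The text names the 12 calls farthest from 0 in each direction that reach 50 CPM in their higher group and keep their sign in each set, the 3 lowest interaction p-values, the 5 most abundant entries of each group, and list members; miR-500-3p and the sequences shown for shared seeds were chosen after values were seen. Members, lists and tests were chosen with earlier results of these data known. Mature sequences and positions are from RefSeq (252 of 296 tested entries matched) and host genes from GENCODE vM21. Alternatives used DESeq2 1.42.0 and limma 3.58.1 on log2(RPM + 1) or log2(RPM + 10).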

Additional observations from a re-analysis of the deposited data

Results flagged for a closer look

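Of 90 values tested over the 7 fluid libraries, 9 had 1 library farther from the rest than Dixon's 95% limit, which chance passes in about 1 of 20. The gap is given as a share of the range of the 7 libraries. miR-133b-3p was highest in fluid library 5 (18.3 CPM, the next at 9.34; gap 0.57), and so was miR-143-5p (61.2 CPM, next 29.7; gap 0.618). miR-1a-3p was highest in fluid library 2 (332 CPM, next 177; gap 0.583). The 3 muscle miRNAs remained below each brushing library in these fluid libraries, except miR-143-5p, where fluid library 5 was above brushing library 1. miR-126a-5p was highest in fluid library 6 (590 CPM, next 303; gap 0.727), as was miR-136-3p (28.1 CPM, next 11.99; gap 0.573). miR-199b-5p was highest in fluid library 3 (386 CPM, next 165; gap 0.728). Fluid library 7 was highest in miR-322-3p (357 CPM, next 143; gap 0.635), miR-26a-5p (48030 CPM, next 31030; gap 0.69) and miR-23b-3p (8265 CPM, next 7139; gap 0.5681).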

How the results depend on the processing

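The count of 65 calls was 61 to 65 under total count scaling and DESeq2's size factors and 48 to 74 under the other settings tried with all libraries. At a minimum count of 50 there were 17 higher calls, of the 30. Leaving out 1 library gave 12 to 61 calls, 5 to 30 higher and 5 to 31 lower, and 0 to 2 for the interaction. Without brushing library 1 and fluid libraries 2 and 6, chosen after the data were seen, there were 36 calls, 13 higher and 23 lower. With the replicate block in place of the library set 48 entries passed, 27 higher and 21 lower, 37 of them shared with the 65, and 1 for the interaction. Deviations of same-numbered libraries from their group means had r of 0.26, -0.287 and -0.021 for numbers 1, 2 and 3. For numbers 2 and 3 the fluid and brushing libraries are in different library sets, so these values cannot show whether the numbers pair mice. The interaction had 16 calls with no filter on low counts and 3 by DESeq2. Without red blood cell entries in the total, the multiciliated list took 7.74% of the brushings at the median. The causes were not tested.

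Signs were checked for the called entries, the 3 of lowest interaction p and the most abundant entries, and not for list members that were not called. Among the entries checked they turned only for these log2 values. Within set 2 miR-497a-3p was 1.38, miR-136-3p 0.79, miR-145a-3p 0.55 and miR-16-5p -0.22; within set 3 miR-338-3p was -0.0023, miR-451a 0.87 and miR-200b-3p 0.37; within set 4 miR-451a was 0.90, miR-200a-3p -0.0897 and miR-26a-5p 0.059. With the replicate block miR-16-5p was -0.017 and miR-200a-3p -0.0409. When 1 library was left out miR-451a ran from -1.05 to 1.32 and miR-200b-3p from -0.35 to 0.14. Without the 3 libraries, miR-338-3p was -0.40, miR-451a 0.24, miR-200b-3p 0.31 and miR-26a-5p 0.053. Entries of a few counts could not be fitted at a minimum count of 50. Depth limits most the entries under 26.5 CPM in brushing library 1.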
